A study of Homo sapiens with 24 samples.

Results

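Keratins are the intermediate filament proteins of epithelial cells, and 9 keratin genes, *KRT7*, *KRT8*, *KRT15*, *KRT17*, *KRT18*, *KRT19*, *KRT20*, *KRT23* and *KRT80*, were followed here among the 58051 gene identifiers counted in 24 RNA-seq libraries. They were chosen by name, with earlier results of these data known. All 9 had a row in the count tables, and 9 passed the filter on low values in HT29 cells, 8 in HCT116 cells and 8 in SW480 cells. A gene passed with 10 or more normalized counts in 4 or more of a line's 8 libraries.

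HT29, HCT116 and SW480 are colorectal cancer (CRC) cell lines, of which HT29 and SW480 carry mutations of the tumour suppressor *APC* and HCT116 carries an activating mutation of *CTNNB1*. *CTNNB1* encodes β-CATENIN, the transcriptional co-activator at the end of the WNT pathway. In the knock-out (KO) clones both alleles of *CTNNB1* had lost an exon by CRISPR/Cas9, which shifts the reading frame, and the wild type (WT) clones had gone through the same CRISPR/Cas9 and cloning steps but kept the intact gene. Each line had 2 WT and 2 KO clones, and each clone gave a library in replicate A and another in replicate B, called rounds below. These were WT clones 11 and 40 and KO clones 28 and 38 of HT29, WT clones 4 and 6 and KO clones 44 and 47 of HCT116, and WT clones 4 and 5 and KO clones 17 and 21 of SW480. All cells were grown in the same serum-containing medium, and the labels name no further treatment. A clone descends from a single cell, so a genotype in a line rests on 2 cells, and the SW480 KO clones were described by the study as becoming senescent on longer culture.

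A keratin filament is built from pairs of a type I and a type II chain, so that a cell needs chains of both types. The type II genes, with *KRT7*, *KRT8* and *KRT80* among them, lie together on chromosome 12, and the type I genes lie together on chromosome 17, except *KRT18*, which is the neighbour of its partner *KRT8*. *KRT8* and *KRT18* form the basic filament of simple epithelia, including that of the gut, where *KRT19* and *KRT20* are added, and *KRT20* marks the differentiated cells at the surface. *KRT7* belongs to ductal and other simple epithelia and is usually low in colon, and the pair of high *KRT20* and low *KRT7* is used by pathologists to recognise colorectal tumours. *KRT15* and *KRT17* are best known from the basal layer and appendages of the skin, and *KRT80* and *KRT23* are less studied members found in several epithelia.

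In GRCh37 coordinates *KRT80* (ENSG00000167767) spans chr12:52562780-52585798 on the minus strand and *KRT7* (ENSG00000135480) chr12:52626304-52645970 on the plus strand. *KRT8* (ENSG00000170421) spans chr12:53290971-53343738 on the minus strand, and its annotated span overlaps *KRT18* (ENSG00000111057) at chr12:53342655-53346690 on the plus strand. On chromosome 17 and always on the minus strand lie *KRT20* (ENSG00000171431, chr17:39032141-39041494), *KRT23* (ENSG00000108244, chr17:39078952-39093898), *KRT15* (ENSG00000171346, chr17:39669997-39678781), *KRT19* (ENSG00000171345, chr17:39679869-39684560) and *KRT17* (ENSG00000128422, chr17:39775694-39781094). The library kit did not mark strand, so reads of *KRT7* cannot be told apart from those of *KRT7-AS* and *KRT87P* where they overlap, nor *KRT80* from *LINC00592*, *KRT23* from an overlapping lncRNA, or *KRT8* from *KRT18*. *KRT7* also shares part of its span with *KRT86* on the same strand.

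Of the 9 genes, *KRT20* moved in opposite directions in HT29 and HCT116 cells, and its promoter is shown for that reason. RefSeq promoter sequences were at hand for 2 of the 9, *KRT8* and *KRT20*. The 250 bases before the *KRT20* start, on the minus strand at chr17:40885243-40885492 of GRCh38.p14, a later build than that of the counts, read 5′ to 3′:

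*KRT20*: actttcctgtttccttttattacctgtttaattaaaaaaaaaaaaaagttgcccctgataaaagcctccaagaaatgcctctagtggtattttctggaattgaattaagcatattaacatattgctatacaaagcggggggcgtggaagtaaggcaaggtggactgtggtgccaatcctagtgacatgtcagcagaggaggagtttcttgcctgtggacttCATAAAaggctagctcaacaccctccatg

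The capitals mark CATAAA, which is TTTATG on the other strand, the core of the CDX motif of intestinal homeobox factors, with its first base at position −29 from the start. It was searched on both strands after the sequence had been seen, and 9.64% of 35116 RefSeq promoter windows of this length hold it. The TCF/LEF letters CTTTGAT and CTTTGAA, searched on both strands, were in neither the *KRT20* nor the *KRT8* window and are in 5.94% of all windows. The exact letters TGANTCA of the AP-1 motif and TATAAA of the TATA box were in neither window either, and are in 6.57% and 10.7% of windows. The marked CATAAA differs from TATAAA in its first base only. Variants of the letters were not searched, so a TATA box in other letters may be present. What binds at CATAAA was not tested.

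The libraries held 22297049 to 29068378 recovered reads on genes. *CTNNB1* itself had 187 to 1312 normalized counts in the 12 KO libraries and 5883 to 50939.5 in the 12 WT libraries. Library B of HT29 KO clone 38 stood apart, since genes with transcripts over 6000 bases lay 1.30 on the log2 scale below those under 1500 bases relative to the mean of its line, against −0.35 to 0.45 in the other 23. Library A of HCT116 KO clone 47 had 35449 genes with a count above 0, against 20256 to 24944 elsewhere. Of 12 markers of blood, vessel, stroma, liver and pigment cells, 2 to 9 per group stayed at or under 3 reads in all 4 libraries, and their summed counts ran from 43.6 to 765 per library. The epithelial markers *EPCAM* and *CDH1* averaged 23057 and 8179 normalized counts in HT29 WT, 13434 and 1481 in HCT116 WT, but 1645 and 55.6 in SW480 WT, so that SW480 had little *CDH1*. The colon markers *LGALS4* and *VIL1* averaged 8196 and 1335 in HT29 WT and at most 17.8 in either WT group of the other lines, and *CDX1* was at 0 in all WT libraries.

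**Figure D1:**
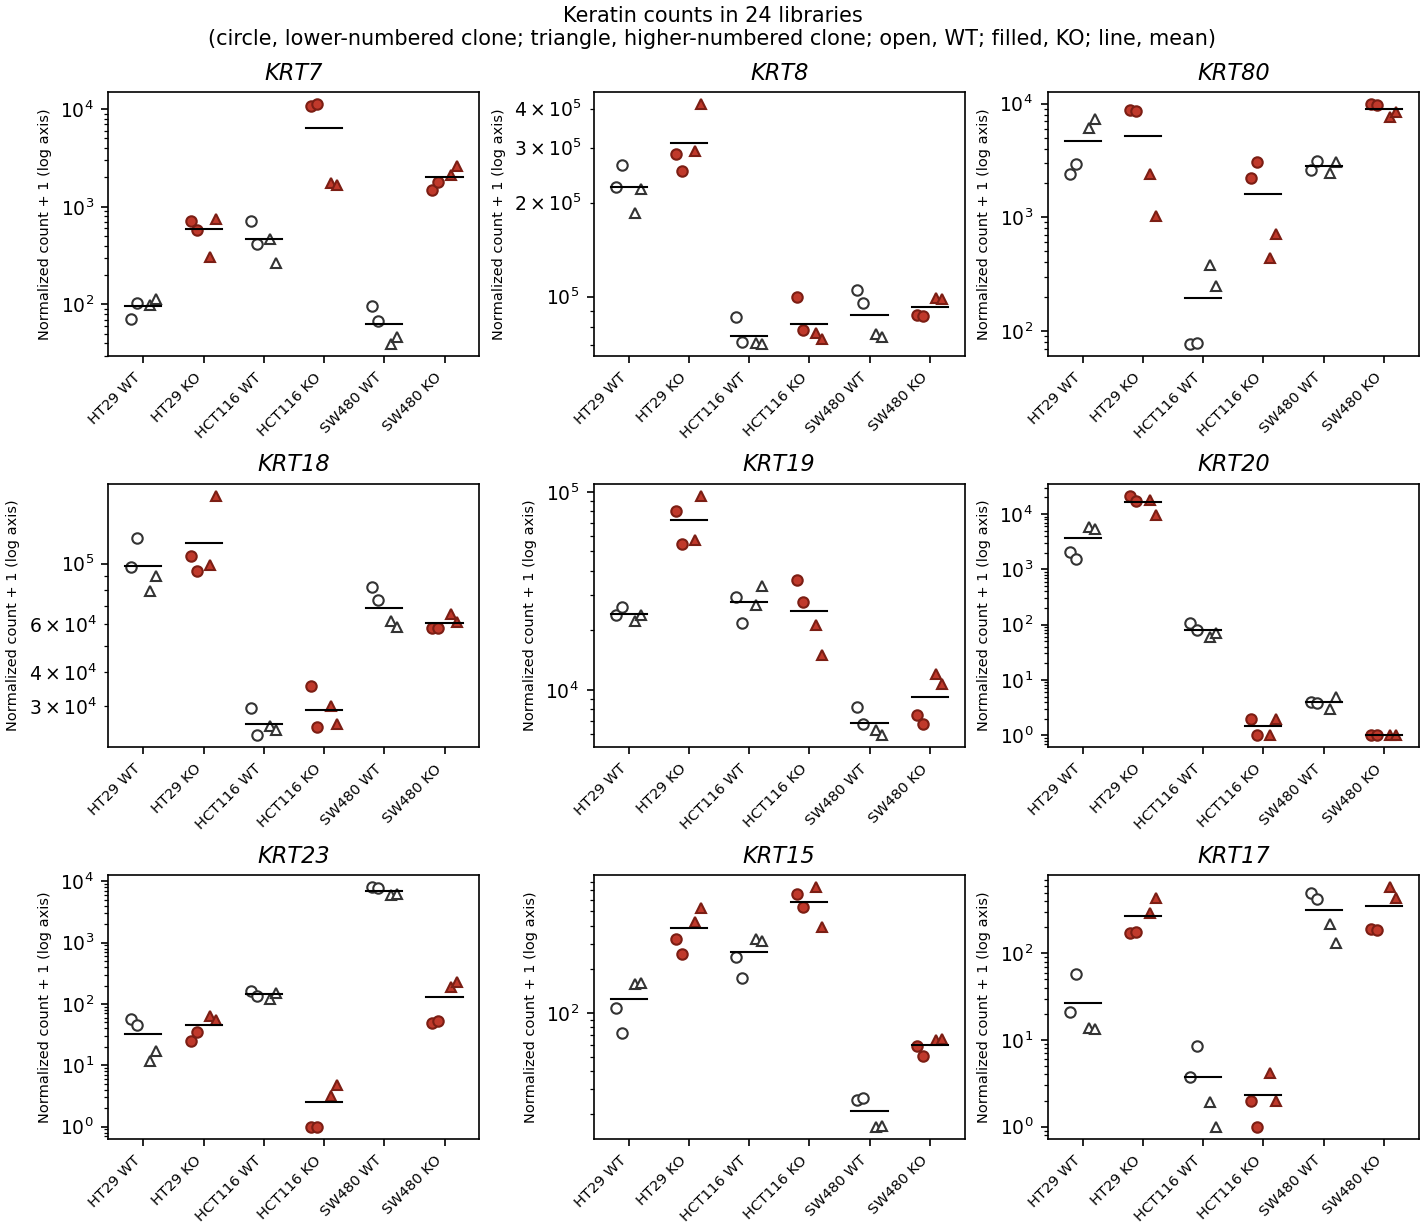
Normalized counts plus 1 (log axis) of the 9 keratin genes in the 24 libraries, by line and genotype, with open symbols for WT, filled symbols for KO, circles and triangles for the lower- and higher-numbered clone, and a line at the mean of 4 libraries. *KRT7* was higher in every KO library of each line than in any WT library of that line, *KRT23* was lower in HCT116 and SW480 KO, and *KRT8* and *KRT18* overlapped between the genotypes in each line.

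Among the 9 members *KRT8* had the highest mean level in the WT clones of each line, with *KRT18* next in HT29 and SW480 and *KRT19* next in HCT116. To compare genes, counts were divided by the length of the canonical transcript in kilobases (kb). In HT29 WT *KRT8* reached 125370.0 ± 17855 normalized counts per kb (SD, n = 4) and *KRT18* 69162 ± 13566, followed by *KRT19* with 17313 ± 1109, *KRT20* with 2034 ± 1215 and *KRT80* with 1212 ± 623. *KRT15*, *KRT7*, *KRT17* and *KRT23* came last, with 72.4 ± 24.6, 59.0 ± 11.4, 16.9 ± 13.9 and 14.3 ± 9.74 per kb. Neighbours in that order whose libraries overlapped were *KRT20* and *KRT80*, *KRT15* and *KRT7*, and *KRT17* and *KRT23*.

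HCT116 WT had a flatter order at the top. *KRT8* was at 41960.0 ± 4196 counts per kb, and *KRT19* with 20070.2 ± 3554 and *KRT18* with 18215 ± 1885 did not differ beyond their spread. *KRT7* followed with 287 ± 114 and *KRT15* with 153 ± 41.0, and their libraries overlapped. *KRT23*, *KRT80* and *KRT20* lay at 64.3 ± 8.50, 50.02 ± 37.5 and 43.1 ± 10.7 per kb and overlapped as well. *KRT17* was near its floor in HCT116, with 0 to 8 reads per WT library.

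In SW480 WT *KRT8* and *KRT18* were level, at 49142 ± 8404 and 48734 ± 7559.7 counts per kb. *KRT19* was at 4888 ± 724 and *KRT23*, a minor keratin in the other lines, at 3179 ± 487 per kb. *KRT80*, *KRT17*, *KRT7* and *KRT15* followed with 724 ± 87.9, 209.9 ± 114, 38.0 ± 16.0 and 11.7 ± 3.03, and *KRT20* had 2 to 4 reads per library, at or near its floor. Apart from *KRT8* and *KRT18*, no neighbours in that order overlapped.

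**Figure D2:**
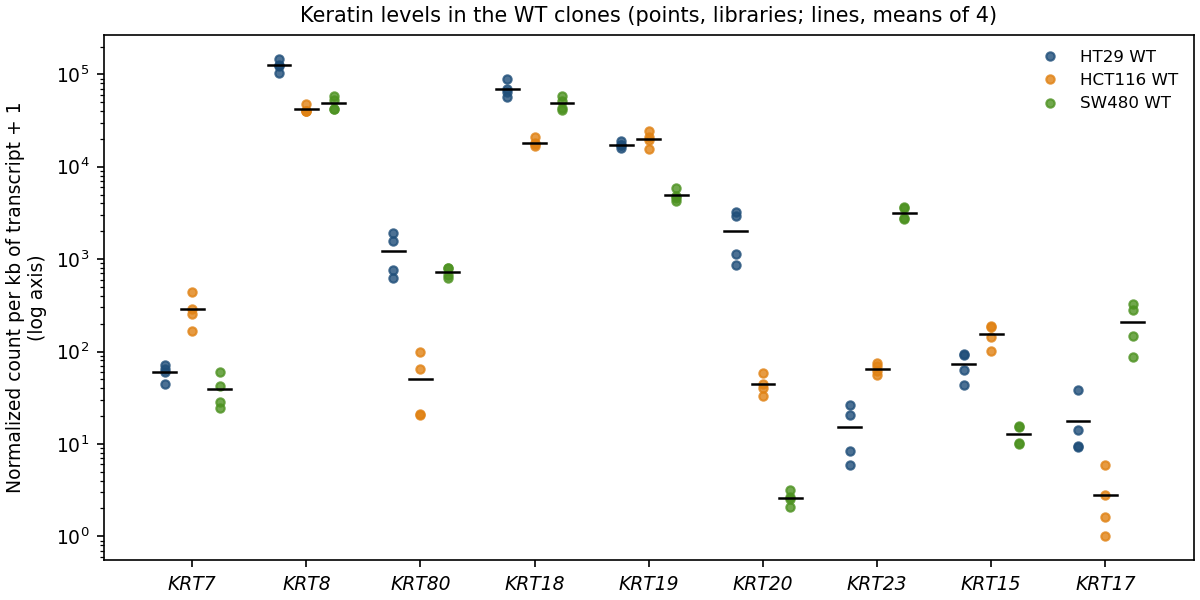
Normalized counts per kb of canonical transcript plus 1 (log axis) of the 9 genes in the WT libraries of each line, with points for libraries and lines for means of 4. *KRT8* has the highest mean in each line, and the means of *KRT20* run from 1.61 to 2034 counts per kb, those of *KRT23* from 14.3 to 3179 and those of *KRT17* from 1.83 to 209.9.

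Between the WT clones of different lines most keratin genes differed, as did many genes. Tested with limma on log2 of the normalized count plus 1, a gene was called where the Benjamini-Hochberg adjusted p over all genes was under 0.05 and the absolute log2 fold change over 1. HT29 and HCT116 WT differed in 8 of the 9 members where 37.3% of all genes tested were called, HT29 and SW480 WT in 6 where 40.0% were called, and HCT116 and SW480 WT in 8 where 39.9% were called. *KRT20* was highest in HT29 and lowest in SW480, with log2 differences, HT29 minus HCT116 and HCT116 minus SW480, of 5.34 (SE 0.37, limma adjusted p = 2.06e-11) and 4.33 (SE 0.37, adjusted p = 7.56e-10). *KRT23* had the reverse order, with HT29 below HCT116 by a log2 difference of −2.41 (SE 0.56, adjusted p = 0.000736) and HCT116 below SW480 by −5.61 (SE 0.56, adjusted p = 8.77e-09).

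The remaining members ranked the lines in other ways. *KRT7* and *KRT15* were highest in HCT116, with log2 differences for *KRT7* of −2.21 (HT29 minus HCT116) and 2.90 (HCT116 minus SW480), and for *KRT15* of −1.10 and 3.63. *KRT80* was lowest in HCT116, with a log2 difference of −4.18 to SW480 (SE 0.66, adjusted p = 1.03e-05), and between HT29 and SW480 the difference was 0.60 (95% interval −0.77 to 1.96). *KRT17* was highest in SW480, by a log2 difference of −3.68 for HT29 minus SW480 (SE 0.62, adjusted p = 2.03e-05). *KRT19* was lower in SW480 than in HT29 by 1.83 and than in HCT116 by 2.03, and HT29 and HCT116 differed by −0.20 (95% interval −0.67 to 0.27). The *KRT15* call between HT29 and HCT116 was lost without library B of HT29 WT clone 11 or library A of HCT116 WT clone 6, with log2 differences down to −0.87.

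Counts of bulk RNA cannot tell fewer expressing cells from less RNA per cell. The KO clones differed from the WT clones in 5 of 9 members tested in HT29, 5 of 8 in HCT116 and 4 of 8 in SW480. In HT29 all 5 calls, *KRT7*, *KRT15*, *KRT17*, *KRT19* and *KRT20*, were higher in KO, where 2.30% of the 14921 genes tested were called, 1.90% higher and 0.402% lower. In HCT116 *KRT7*, *KRT15* and *KRT80* were higher and *KRT20* and *KRT23* lower in KO, where 5.06% of 15404 genes were called, 3.17% higher and 1.89% lower. In SW480 *KRT7*, *KRT15* and *KRT80* were higher and *KRT23* lower in KO, where 17.5% of 16325 genes were called, 10.7% higher and 6.76% lower. *KRT7* and *KRT15* were thus called higher in each of the 3 lines. The members tested had a median log2 fold change of 1.54 in HT29 cells, of 0.15 in HCT116 cells and of 0.27 in SW480 cells, beside 0.03, −0.01 and −0.00 over all genes tested.

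The p-values take the 4 libraries of a genotype as replicates although they come from 2 clones. With the rounds of each clone summed, so that n is 2 against 2, limma called 0 members in HT29, 2 in HCT116 and 4 in SW480. Of all genes tested in that setting, 0 of 15023 were called in HT29, 327 of 15643 in HCT116 and 2496 of 16665 in SW480. No gene passed in HT29, so the setting does not set the keratins apart from other genes there. In HT29, 5 members had an unadjusted p under 0.05 in that setting, and edgeR called 4 and DESeq2 5 on the 8 libraries.

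**Figure D3:**
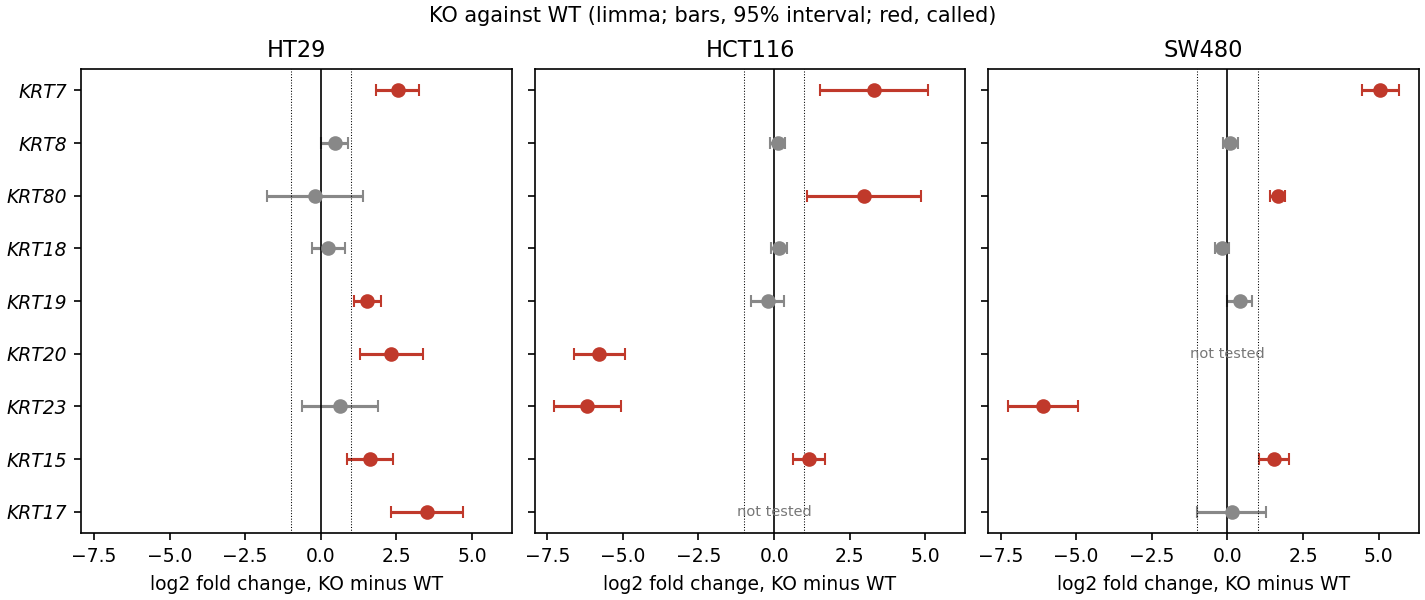
Log2 fold change of KO minus WT with its 95% interval for each member in each line, from limma on 8 libraries, with called members in red and dotted lines at −1 and 1. *KRT7* and *KRT15* lie above 1 in each line, *KRT8* and *KRT18* lie near 0, and *KRT20* lies at 2.34 in HT29 and −5.78 in HCT116.

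*KRT7*, the type II keratin of ductal epithelia, rose in the KO clones of each line. In HT29 it had 70.1 and 102 normalized counts in WT clone 11 and 96.8 and 114 in WT clone 40 (rounds A and B), against 715 and 571 in KO clone 28 and 306 and 756 in KO clone 38. HCT116 had 714 and 416 in WT clone 4 and 468 and 268 in WT clone 6, and 10816 and 11162 in KO clone 44 but 1729.8 and 1684 in KO clone 47. SW480 had 96.0 and 67.1 in WT clone 4 and 38.6 and 45.02 in WT clone 5, against 1500.3 and 1787 in KO clone 17 and 2113 and 2628 in KO clone 21. No KO library overlapped a WT library of its line, and the means were 6.13-, 13.6- and 32.5-fold higher in KO.

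By limma *KRT7* had a log2 fold change of 2.54 in HT29 cells (SE 0.32, adjusted p = 0.00432), of 3.30 in HCT116 cells (SE 0.76, adjusted p = 0.0298) and of 5.06 in SW480 cells (SE 0.28, adjusted p = 3.70e-07). The rise in SW480 exceeded that in HT29, with a difference of the KO effects, HT29 minus SW480, of −2.52 (SE 0.72, adjusted p = 0.0183), a comparison in which 12.3% of all genes were called. With the clone as a random effect that adjusted p was 0.0540. HT29 minus HCT116 gave −0.76 (95% interval −2.25 to 0.73) and HCT116 minus SW480 gave −1.76 (95% interval −3.25 to −0.27, adjusted p = 0.121), with 5.39% and 10.0% of all genes called in these 2 comparisons. In HCT116 the 2 KO clones differed from each other by 2.69 on the log2 scale (SE 0.27, adjusted p = 0.000343, 3.28% of all genes called). There the rounds paired the libraries, and with the round as a block the adjusted p was 0.0528, and without a filter on low values it was 0.0933. With 1 library left out in turn the adjusted p was 0.0269 to 0.0836. The call was lost without either library of WT clone 4, WT clone 6 or KO clone 44. It was also lost without the whole of WT clone 4 or WT clone 6 (limma adjusted p up to 0.188). In all, the HCT116 call held in 10 of 21 alternatives.

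*KRT80*, a type II keratin, rose in HCT116 and SW480 and was split by clone in HT29. SW480 had 2598 and 3092 normalized counts in WT clone 4 and 2429.6 and 3089.7 in WT clone 5, against 9826 and 9777 in KO clone 17 and 7575 and 8405 in KO clone 21. HCT116 had 76.1 and 77.0 in WT clone 4 and 376 and 246 in WT clone 6, against 2217 and 3036 in KO clone 44 and 437 and 715 in KO clone 47. HT29 had 2399 and 2934 in WT clone 11 and 6059 and 7386 in WT clone 40, with 8744 and 8514 in KO clone 28 but 2405 and 1026 in KO clone 38. The genotypes were apart in SW480 and HCT116 and overlapped in HT29, where each genotype had a high and a low clone.

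The log2 fold change of *KRT80* was 1.67 in SW480 (SE 0.11, limma adjusted p = 8.75e-07), 2.97 in HCT116 (SE 0.80, adjusted p = 0.0495) and −0.19 in HT29 (95% interval −1.79 to 1.40). Clones of 1 genotype differed by 2.46 between KO clones 28 and 38 of HT29 (adjusted p = 0.00365, 12.5% of all genes called), by −1.97 between WT clones 4 and 6 of HCT116 (adjusted p = 0.00434, 1.44% called) and by 2.21 between KO clones 44 and 47 of HCT116 (adjusted p = 0.00100). The errors of these clone comparisons come from the rounds alone. The HCT116 call was lost with the round as a block (adjusted p = 0.0836), without a filter on low values (0.159), and with the clone as a random effect (0.0666). It was also lost with a pseudocount of 5 (0.0501), and without WT 4A, 4B or 6B or KO 44A, 44B or 47B (adjusted p up to 0.133). Leaving out the whole of WT clone 4 or KO clone 44 lost it too. With a clone left out the log2 fold change went down to 1.86 and the limma adjusted p up to 0.211. In all, the HCT116 call held in 8 of 21 alternatives. The KO effect differed between HT29 and HCT116 by −3.16 (SE 0.93, adjusted p = 0.0403), which was lost without any of 8 of the 24 libraries in turn, these being WT 40A and 40B and KO 38A and 38B of HT29 and WT 4A and 4B and KO 44A and 44B of HCT116. That call was also lost with edgeR and without a filter on low values. *KRT80* has the longest canonical transcript of the 9, with 3873 bases, and was lowest among the HT29 libraries in KO 38B, which was low in long transcripts. Without that library its HT29 log2 fold change was 0.42 (adjusted p = 0.761), and the part of transcript length was not tested.

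*KRT8*, the main type II keratin of the gut, changed little. HT29 had 185880.0 to 263773 normalized counts per WT library and 253314 to 412356 per KO library. HCT116 had 70711 to 86062 per WT and 73143 to 99673 per KO library, and SW480 had 74327 to 105153 and 86906 to 98886. The libraries of both genotypes overlapped in each line. The log2 fold changes were 0.46 in HT29 (95% interval 0.02 to 0.90, limma adjusted p = 0.281), 0.13 in HCT116 (−0.12 to 0.37) and 0.10 in SW480 (−0.15 to 0.35). Each interval lies inside 1 in size.

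*KRT18*, its type I partner, did not pass the test in any line either. It had 79442 to 124386 counts in WT and 93534 to 177254 in KO libraries of HT29, 23452 to 29556 and 25135 to 35494 in HCT116, and 58722 to 81827 and 57838 to 65283 in SW480. The log2 fold changes were 0.25 (95% interval −0.28 to 0.79), 0.17 (−0.10 to 0.44) and −0.17 (−0.40 to 0.06). Per kb, *KRT8* exceeded *KRT18* by a ratio of 1.83 in HT29 WT and 2.31 in HCT116 WT, and the ratio was 1.01 in SW480 WT and 1.21 in SW480 KO, where its libraries ran from 0.977 to 1.03 and from 1.18 to 1.28. Across the 24 libraries, after subtraction of each group's mean, the log2 counts of *KRT8* and *KRT18* had a Pearson r of 0.940, the highest of the 36 pairs of members, as a description over libraries that share clones and depth.

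Near-identical copies bear on these values. Of the 50-base words of the canonical transcript, 39.2% in *KRT8* and 54.3% in *KRT18* also occur in transcripts of other genes, of which there are 38 and 47. The 51 pseudogenes named after *KRT8* held 1.44 to 3.43% as many reads as *KRT8* per library, and the 67 named after *KRT18* held 0.999 to 2.48% as many as *KRT18*. For *KRT19* this was at most 0.187%, and *KRT20* shared no such word. How reads with several equal places were counted is not given in the sources used here.

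*KRT19*, the smallest keratin and a partner of *KRT8* in simple epithelia, rose in HT29 KO and was not called in HCT116 or SW480. HT29 had 23890.4 and 26094 normalized counts in WT clone 11 and 22344 and 23933 in WT clone 40, against 80057 and 54825 in KO clone 28 and 57243 and 95421 in KO clone 38. HCT116 had 21775 to 33612 in WT, and 35698 and 27783 in KO clone 44 but 21235 and 14987 in KO clone 47. SW480 had 5913 to 8212 in WT, and 7500.4 and 6698 in KO clone 17 and 12046 and 10684 in KO clone 21. The genotypes did not overlap in HT29 and overlapped in the other lines.

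The log2 fold change of *KRT19* in HT29 was 1.54 (SE 0.20, limma adjusted p = 0.00537), a 2.99-fold rise, and 1.39 without library B of KO clone 38 (adjusted p = 0.00399). It was −0.22 in HCT116 (95% interval −0.76 to 0.32) and 0.41 in SW480 (−0.00 to 0.82). The KO effect in HT29 was above that in HCT116 by 1.76 (SE 0.32, adjusted p = 0.00122) and above that in SW480 by 1.13 (SE 0.32, adjusted p = 0.0179). The second difference lost its call without KO 38B of HT29 or KO 17B of SW480 and with a random clone effect. In HT29 the call was lost without WT clone 40 (adjusted p = 0.0673), which leaves 2 WT libraries, and with the clone as a random effect.

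*KRT20*, the type I keratin of differentiated gut epithelium, rose in HT29 KO and fell to 0 or 1 read in HCT116 KO. HT29 had 2032 and 1542 normalized counts in WT clone 11 and 5791 and 5313 in WT clone 40, against 21316 and 17208 in KO clone 28 and 18008 and 9565 in KO clone 38. HCT116 had 104 and 78.9 in WT clone 4 and 58.2 and 70.4 in WT clone 6, and 0 or 1 read in each KO library. SW480 was at 2 to 4 reads per WT library and 0 reads in each KO library, so it was not tested and no fold is given. The genotypes were apart in HT29 and HCT116, and in HT29 the WT clones themselves lay apart, with a log2 difference of −1.65 between clones 11 and 40 (SE 0.30, adjusted p = 0.0150, 7.58% of all genes called).

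In HT29 the log2 fold change of *KRT20* was 2.34 (SE 0.46, limma adjusted p = 0.0361), with means 4.50-fold apart. In HCT116 the KO mean was at least 26.3-fold lower than the WT mean, taking the floor of 3 reads per library, and the adjusted p was 3.50e-06. The fitted value there was −5.78 and ran from −7.87 to −3.89 over the alternatives because it depends on what is added to a count of 0. The KO effects of HT29 and HCT116 differed by 8.12 (SE 0.52, adjusted p = 1.11e-09), and this was called in each of the 31 alternatives that tested it. The differences of 4.28 between HT29 and SW480 and −3.84 between HCT116 and SW480 were called too, but rest on the SW480 reads at the floor, and edgeR and DESeq2 did not call the second. The HT29 call was lost without WT 11A or 11B or KO 28A, 28B or 38A (adjusted p up to 0.106) and under edgeR (adjusted p = 0.0538). It was also lost without the whole of WT clone 11, KO clone 28 or KO clone 38. With a clone left out the log2 fold change went down to 1.51 and the limma adjusted p up to 0.0856. In all, the HT29 call held in 9 of 21 alternatives.

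The colon marker *LGALS4* moved with *KRT20* in HT29, from 8196 ± 5389 in WT to 31181 ± 2846 in KO (SD, n = 4, log2 fold change 2.21, limma adjusted p = 0.0441, not called by edgeR), while *CDX2* averaged 5.06 in WT and 11.4 in KO. Of the 8 intestinal epithelial markers 6 were tested in HT29 and *LGALS4* was called, and their summed counts ran from 40881 to 55803 per WT and from 68551.8 to 95327 per KO library, with *CDX1* at 0 in WT. In HCT116, where *KRT20* fell, *CDX2* averaged 608 in WT and 437 in KO, *LGALS4* averaged at most 1.62, and the sums were 18678 to 20259 per WT library and 26444 to 29401 per KO library. In SW480, where *KRT20* was at 0 reads in KO and *KRT23* fell, limma called 1 of 5 intestinal markers tested, *CDX2*, which averaged 1097 in WT and 106 in KO (log2 fold change −3.49, adjusted p = 3.83e-05), and the sums were 2019 to 3571 per WT and 847 to 1128 per KO library. The part of these genes in the *KRT20* and *KRT23* counts was not tested.

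*KRT23*, a type I keratin, fell to near 0 in HCT116 KO and to a small remainder in SW480 KO. SW480 had 8013 and 7885 normalized counts in WT clone 4 and 5979.8 and 6209 in WT clone 5, against 48.0 and 51.4 in KO clone 17 and 188 and 224 in KO clone 21. HCT116 had 163 and 135 in WT clone 4 and 120.1 and 150.4 in WT clone 6, against 0 reads in both libraries of KO clone 44 and 2.14 and 3.81 in KO clone 47. HT29 had 55.7 and 43.6 in WT clone 11 and 10.9 and 16.3 in WT clone 40, with 24.1 and 34.2 in KO clone 28 and 61.7 and 54.5 in KO clone 38. The genotypes were far apart in SW480 and HCT116 and overlapped in HT29.

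In SW480 the *KRT23* mean was 55.0-fold lower in KO, with a log2 fold change of −6.09 (SE 0.50, limma adjusted p = 1.61e-05). In HCT116 the fitted value was −6.17 (SE 0.50, adjusted p = 1.60e-05), which ran from −8.02 to −4.54 over the alternatives and was −6.40 without library A of KO clone 47. In HT29 it was 0.64 (95% interval −0.62 to 1.90). The KO effect in HT29 differed from that in HCT116 by 6.81 (adjusted p = 5.99e-06) and from that in SW480 by 6.73 (adjusted p = 1.63e-06), and the effects in HCT116 and SW480 differed by −0.08 (95% interval −1.71 to 1.55). Between clones, KO clone 17 of SW480 lay below KO clone 21 by −2.02 on the log2 scale (SE 0.10, adjusted p = 7.02e-10, 4.61% of all genes called), and WT clone 11 of HT29 above WT clone 40 by 1.81 (SE 0.37, adjusted p = 0.0214). KO clone 44 of HCT116 also lay below clone 47, by −1.96 (adjusted p = 0.0182), on counts at or near the floor, and neither edgeR nor DESeq2 nor a pseudocount of 5 gave the call.

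*KRT15*, a type I keratin of basal epithelial cells, rose in each line from low levels. HT29 had 108 and 72.0 normalized counts in WT clone 11 and 156 and 160.3 in WT clone 40, against 324 and 253 in KO clone 28 and 419 and 530.3 in KO clone 38. HCT116 had 242 and 172 in WT clone 4 and 324 and 310.3 in WT clone 6, against 663 and 538 in KO clone 44 and 733 and 389 in KO clone 47. SW480 had 24.3 and 24.8 in WT clone 4 and 15.4 and 15.7 in WT clone 5, against 58.3 and 49.5 in KO clone 17 and 63.5 and 65.3 in KO clone 21. The genotypes did not overlap in any of the lines.

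The means of *KRT15* were 3.08-, 2.22- and 2.95-fold higher in KO, with log2 fold changes of 1.63 in HT29 (SE 0.33, limma adjusted p = 0.0408), 1.15 in HCT116 (SE 0.24, adjusted p = 0.00921) and 1.54 in SW480 (SE 0.23, adjusted p = 0.000284). The 3 KO effects differed from each other by at most 0.48 in size, the 95% interval of that difference, HT29 minus HCT116, being −0.35 to 1.31. The SW480 call held in all 21 alternatives. In HT29 the call was lost with any library but KO 28B left out (adjusted p up to 0.113, and 0.0590 without KO 38B), and with a random effect for the clone (0.135). It held there in 8 of 21 alternatives. In HCT116 the call held in 17 of 21 alternatives and was lost without WT 4B, where the log2 fold change fell to 0.96. It was also lost without the whole of WT clone 4 or KO clone 44. With a clone left out the log2 fold change went down to 0.83 and the limma adjusted p up to 0.0625.

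*KRT17*, a type I keratin of skin appendages that is induced by stress in epithelia, rose in HT29 KO. HT29 had 20.2 and 56.8 normalized counts in WT clone 11 and 12.8 and 12.5 in WT clone 40, against 170.0 and 174 in KO clone 28 and 289 and 439.5 in KO clone 38. SW480 had 495 and 429 in WT clone 4 and 220.1 and 129 in WT clone 5, with 190.0 and 184 in KO clone 17 and 579 and 436 in KO clone 21. HCT116 held 0 to 8 reads in WT and 0 to 3 in KO libraries and was not tested. The genotypes were apart in HT29 and overlapped in SW480, where each genotype had a high and a low clone.

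The *KRT17* mean was 10.5-fold higher in HT29 KO, with a log2 fold change of 3.51 (SE 0.52, limma adjusted p = 0.0117), and 3.23 without KO 38B (adjusted p = 0.0208). It was 2.83 without WT clone 40, where the call was lost (adjusted p = 0.0781). In SW480 the log2 fold change was 0.14 (95% interval −1.01 to 1.28), while clones differed by 1.45 between WT 4 and 5 (adjusted p = 0.00118, 1.97% of all genes called) and by −1.42 between KO 17 and 21 (adjusted p = 0.000509). The KO effect in HT29 was above that in SW480 by 3.37 (SE 0.87, adjusted p = 0.00944) and above that in HCT116 by 3.98 (SE 0.87, adjusted p = 0.00612), the latter with HCT116 counts near the floor, and both calls were lost with a pseudocount of 0.1 (adjusted p = 0.130 and 0.0875). Of the 50-base words of *KRT17*, 18.3% also occur in other genes.

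Across the members, KO and WT libraries did not overlap in 5 of 9 tested in HT29, 5 of 8 in HCT116 and 4 of 8 in SW480, where 13.0%, 20.5% and 46.2% of all genes tested did not overlap. They were the called members in each line.

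The sums of type I and type II transcripts were of similar size in each group. Over all 55 keratin genes of both clusters, type II exceeded type I per kb by a ratio of 1.40 ± 0.0457 in HT29 WT and 1.201 ± 0.103 in HT29 KO (SD, n = 4), 1.09 ± 0.123 and 1.30 ± 0.112 in HCT116, and 1.61 ± 0.0921 and 1.52 ± 0.0669 in SW480. The 9 members took 1.31% of all counts in HT29 WT and 1.82% in HT29 KO, 0.494% and 0.545% in HCT116, and 0.675% and 0.667% in SW480. Within type I, *KRT18* fell from 75.8% in HT29 WT to 56.4% in HT29 KO while *KRT19* went from 19.2% to 34.9% and *KRT20* from 2.38% to 6.68%. These ratios and shares are descriptions, with no test.

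The other keratin genes showed how the SW480 type II set was made up. *KRT5*, the basal type II keratin of skin, which was outside the naming rule and was chosen after its values were seen, had 110483 and 105576 normalized counts in WT clone 4 and 79897 and 63523 in WT clone 5 of SW480, against 27637 and 27223 in KO clone 17 and 23333 and 21171 in KO clone 21. Its log2 fold change was −1.83 (limma adjusted p = 1.48e-05), called in all 21 alternatives, and its mean in the other lines was at most 17.3. Per kb it was 43.0% of the type II sum in SW480 WT and 14.7% in SW480 KO, where *KRT8* went from 53.3% to 68.3%. *KRT81*, a hair keratin, rose from 1721 ± 182 to 17642 ± 2235 counts (log2 fold change 3.35, adjusted p = 4.77e-09) and from 1.01% to 11.97% of that sum. *KRT81* shares 44.6% of its 50-base words with other genes and *KRT86* 44.8%, so their split is uncertain.

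Beside the counts that follow, 2.30% of all genes tested were called in HT29, 5.06% in HCT116 and 17.5% in SW480. Of 23 other type II genes, 9 were tested in SW480, with 2 higher and 5 lower in KO, and the median log2 fold change was −1.51. Besides *KRT5* and *KRT81*, the hair root keratin *KRT71* fell from 2366 ± 513 to 132 ± 7.78 counts and its neighbour *KRT74* from 1186 ± 110.0 to 8.96 ± 4.42. *KRT6A*, a keratin of wounded skin, fell from 145 ± 114 to 22.2 ± 11.0. Its genotypes overlapped, with a lowest WT value of 18.6 and a highest KO value of 35.7. The *KRT6A* call held in 9 of 21 alternatives. It was lost without WT clone 4 (log2 fold change −0.90) and without KO clone 21 (limma adjusted p = 0.314). In HCT116, 1 of 3 tested rose, *KRT86* from 6.72 to 31.8, and 1 fell, *KRT6A* from 29.6 to 2.31, and in HT29 limma, edgeR and DESeq2 each called 0 of 3, 1 of which had an unadjusted limma p under 0.05. Of 23 other type I genes, 3 were tested in HT29 with 0 called by limma, edgeR or DESeq2 and 1 at an unadjusted p under 0.05, 5 in HCT116 with *KRT13* and *KRT32* lower, and 3 in SW480 with *KRT16* higher and *KRT39* lower. Of these, *KRT39* fell from 47.0 ± 10.9 to 0.229 ± 0.459 counts. The other 3 averaged at most 29.0 in either genotype of the line where they were called. In HT29, where it was not called, *KRT13* averaged 3153 in WT and 3616 in KO.

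Gene order added a pattern that was seen after the values. On chromosome 12 the first genes of the cluster, *KRT80*, *KRT7*, *KRT86* and *KRT81*, were all 4 called higher in SW480 KO, with 1.75 on the log2 scale for *KRT86*, while of the 6 tested from *KRT75* to *KRT74* 5 were called lower, with −1.51 for *KRT75*, and *KRT6B* was not called. *KRT86* in SW480 and *KRT75* were outside the naming rule. The *KRT6A* call, among the 5 lower, held in 9 of 21 alternatives. At the far end *KRT3*, *KRT8* and *KRT18* were not called. In HCT116 *KRT80*, *KRT7* and *KRT86* of the same end were called higher, where *KRT86* overlaps the span of *KRT7*. These calls held in 8 of 21 alternatives for *KRT80*, 10 of 21 for *KRT7* and 11 of 20 for *KRT86*. Without KO clone 44 the limma adjusted p of *KRT86* was 0.225. There *KRT81* had a log2 fold change of −1.06 in HCT116 that was not called on all 8 libraries (limma adjusted p = 0.185). On chromosome 17 the neighbours *KRT20* and *KRT23* fell together in HCT116, and *KRT23* and *KRT39*, which lie side by side, in SW480. The neighbours *KRT15* and *KRT19* were both called higher in HT29, while in HCT116 and SW480 *KRT15* was called and *KRT19* was not, and the difference between the 2 genes was not tested. These are descriptions of position, and 27 keratin genes lie on chromosome 12 and 28 on chromosome 17.

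Proteins that tie keratins to the cell periphery, and other intermediate filaments, were counted as well. Of 12 linker genes, 12 were tested in HT29 with 0 called by limma or edgeR, 1 by DESeq2 and 5 at an unadjusted limma p under 0.05. In HCT116 11 were tested, with *PPL* higher. In SW480 11 were tested, with 4 higher and 1 lower by limma, while edgeR and DESeq2 each called 6. Of all genes tested, limma called 2.30% in HT29, 5.06% in HCT116 and 17.5% in SW480. *PPL*, which encodes periplakin, a plakin that binds keratins, rose from 1521 ± 335 to 4596 ± 1277 counts in HCT116 (log2 fold change 1.58, adjusted p = 0.000654) and from 1434 ± 138 to 10003 ± 1980.0 in SW480 (2.79, adjusted p = 1.15e-07). The other SW480 rises were *PLEC* (1.67), *DST* (1.47) and *EVPL* (1.13), further plakins, and the fall was the desmosomal plakin *DSP*, from 7458 ± 625 to 3504 ± 213. The *DSP* fall was outside the naming rule and was chosen after its values were seen.

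Of 12 other intermediate filament genes, 1 was tested in HT29 and not called, and 5 in HCT116 with *PRPH* lower, where 5.06% of all genes were called. In SW480 5 were tested, with the mesenchymal filament *VIM* and the neural stem cell filament *NES* higher, where 17.5% of all genes were called. *VIM* rose in SW480 from 11626 ± 976 to 26787 ± 1675 counts (log2 fold change 1.21, adjusted p = 6.49e-07) and *NES* from 1736 ± 499 to 4841 ± 816. The epithelial marker *CDH1* averaged 55.6 in SW480 WT and 44.0 in SW480 KO, and *EPCAM* 1645 and 818. In HCT116 *CDH1* rose from 1481 ± 215 to 3323 ± 382 (adjusted p = 0.000197). Of 13 listed markers of other cell types, 12 were found among the counted genes and 6 were tested in SW480. Limma called 2 higher and 2 lower in KO. Among them *COL1A2* fell and *CD14* and *VWF* rose in KO, each with means of at most 172 counts in either genotype. The other gene called lower is not named here, and that limit does not cover it. Their part in the filament genes was not tested.

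The genes most like each member over the 24 libraries, by Pearson r of log2 counts among 11691 genes that are no keratin, were *ITM2C* (0.917) and *SYTL1* for *KRT7*, *RASSF7* (0.981) and *ABHD15* for *KRT8*, *FBXL17* (0.931) and *TINAGL1* for *KRT80*, *GLRX3* (0.969) and *SLC39A1* for *KRT18*, and *TDP2* (0.950) and *SYNGR2* for *KRT19*. For *KRT20* they were *GPT2* (0.954) and *RAPGEFL1*, for *KRT23* *NXN* (0.930) and *RHOB*, for *KRT15* *SLC39A11* (0.962) and *BAIAP2*, and for *KRT17* *THNSL2* (0.951) and *RABIF*. The libraries fall into 3 lines, which set most of these values, and they are descriptions without a test.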

How the data were processed

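RNA of 2 WT and 2 KO clones per line was sequenced for replicates A and B (rounds), which made 24 libraries. The submitters' processing notes name STAR 2.7.5b, featureCounts 2.0.1, DESeq2 2.11.40.6 and GRCh37. The values deposited by the authors are signal, that is each library's gene counts over its own size factor, called normalized counts here. Whole reads were recovered from the step of each library within 0.01 for 100% of values, and the steps matched DESeq2 size factors with a largest relative difference of 5.38e-11. Libraries held 22297049 to 29068378 recovered reads. A library was at its floor for a gene with 3 reads or fewer, which covers counting error only. The authors also deposited per line a table of DEGs with mean signal, log2 fold changes and p-values, which was not used.

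Genes with at least 10 normalized counts in at least 4 libraries were tested on log2(value + 1) with limma 3.58.1 (mean-variance trend, robust) in R 4.3.3, and called at a Benjamini-Hochberg adjusted p under 0.05 and an absolute log2 fold change over 1. Differences between lines used all 24 libraries in 1 fit. Alternatives were edgeR 4.0.16 and DESeq2 1.42.0 on recovered reads, pseudocounts of 0.1 and 5, other filters, the round as a block, the clone as a random effect, summed rounds, and libraries and clones left out. Whether rounds paired the libraries was checked by correlating the A minus B differences between clones across genes. All 6 correlations in HCT116 were over 0.1 (0.18 to 0.37), so blocked values stand beside HCT116 results they change, against 2 of 6 in HT29 and 1 of 6 in SW480. Places and lengths came from the GENCODE annotation lifted to GRCh37. The study calls the rounds independent biological replicates, and p-values measure the spread over rounds and 2 clones per genotype. The test was checked on simulated data with independent libraries and no clone effect. That check cannot show how the test behaves where libraries share clones, as they do here.

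All 9 members were named, with at most 4 called genes of each other list and line, those with the largest absolute log2 fold change. The members and lists were chosen with earlier results of these data known. A withheld item is not reported here.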

Additional observations from a re-analysis of the deposited data

Results flagged for a closer look

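*KRT8* and *KRT18* each had a library that lay far from the other 3 of its group by Dixon's test. For *KRT8* it was library A of HCT116 WT clone 4 with 86062 normalized counts, and for *KRT18* library B of HT29 KO clone 38 with 177254. The HT29 library was the one low in long transcripts, and the canonical transcript of *KRT18* has 1413 bases. Without that library the HT29 log2 fold change was 0.05 for *KRT18* and 0.32 for *KRT8*. The part of transcript length was not tested. Chance alone marks about 1 in 20 groups, and 51 groups were tested.

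The KO effect differed between lines in a test of the difference itself for 11 combinations of gene and lines. Between HT29 and HCT116 the differences of the log2 fold changes were 3.98 for *KRT17*, 1.76 for *KRT19*, 8.12 for *KRT20*, 6.81 for *KRT23* and −3.16 for *KRT80*. Between HT29 and SW480 they were −2.52 for *KRT7*, 3.37 for *KRT17*, 1.13 for *KRT19*, 4.28 for *KRT20* and 6.73 for *KRT23*. Between HCT116 and SW480 the difference was −3.84 for *KRT20*, which rests on SW480 libraries with 0 to 4 reads. The same control clones of a line enter 2 of these comparisons.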

How the results depend on the processing

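Over all alternatives, each left-out library and clone counted singly, 150 of 189 member values in HT29, 136 of 166 in HCT116 and 161 of 168 in SW480 kept direction and call, while 31, 28 and 0 lost the call and 8, 2 and 7 reversed direction. In HT29 the 5 called members became 3 with the round as a block, which is not known to pair these libraries (*KRT15* adjusted p = 0.0745, *KRT20* 0.0605), and 2 with the clone as a random effect. They became 0 with summed rounds, where 0 of 15023 genes were called, and 2 to 4 with a library or clone left out, lowest without WT clone 40. In HCT116 the 5 became 3 without a filter, 3 with at least 10 in every library, where *KRT20* and *KRT23* are no longer tested, and 3 with the block, in which *KRT7* and *KRT80* were lost. They became 2 with summed rounds, where 327 of 15643 genes were called, and 2 to 5 with a library or clone left out, lowest without library 4B of WT or the whole of WT clone 4. The block changed no other member's call between KO and WT.

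The filter of at least 10 in every library left 6 members and 11419 genes to test between lines. Called members of the WT comparisons went from 8, 6 and 8 to 5, 3 and 5 of these 6. Those of the KO effects went from 5, 5 and 1 to 2, 2 and 0 of 6. Of all genes tested under this filter, 2956, 3046 and 3197 were called between WT clones and 526, 903 and 705 for the KO effects. Members that were no longer tested could not be called, so the lower counts are not calls lost alone. Among the KO effects, the clone as a random effect gave 4 called members for HT29 against HCT116 and 3 for HT29 against SW480. Of 18609 genes, 433 and 1399 were called in these fits. For HCT116 against SW480, edgeR and DESeq2 gave 0 and leaving out a library 1 to 2, highest without HCT116 KO 44A. DESeq2 called 4 members between the HT29 WT clones, where limma called 2. The cause was not tested.

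Among values that limma did not call, direction reversed for *KRT23* in HT29 (−0.26 without WT clone 40, up to 1.55), *KRT80* in HT29 (0.11 with edgeR, 0.099 with DESeq2, −1.42 to 1.03 with clones left out), *KRT19* in HCT116 (−0.63 to 0.19), and *KRT8* (−0.11 to 0.30), *KRT17* (−0.59 to 0.86) and *KRT18* (−0.35 to 0.0097) in SW480. Depth limits *KRT20* in SW480 and *KRT17* in HCT116, at or near the floor.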
